A study of Mus musculus with 6 samples.

Results

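Genes that promote or restrain calcification of the vessel wall were followed in aortic RNA of Trail knockout and wild-type mice. The members were 10 listed genes, each represented by its single-symbol probe set of highest mean signal. Of these, 7 were measured here (Mgp, Sost, Alpl, Bmp2, Bmp4, Msx2 and Sox9), out of 19938 genes with such a probe set. Spp1, Enpp1 and Runx2 were not analysed here. Each measured member had 1 probe set, and values are log2 signals of that probe set, so that a difference of 1 is a 2-fold change. The levels of different genes cannot be set against each other on this scale.

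The samples were 3 arrays of Trail knockout aorta and 3 arrays of wild-type aorta. All mice were 6 weeks old and labelled with the strain C57Bl6/J, and the knockout mice came from Amgen. The labels give neither the cells in which the deletion acts nor whether animals were pooled, and p-values therefore reflect only how far these samples spread. Trail, encoded by Tnfsf10, is a cytokine that triggers cell death, and osteoprotegerin, its soluble decoy receptor, also binds RANK ligand, the signal that drives the formation of bone-resorbing osteoclasts.

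Calcification of an artery is an active process that borrows from bone formation. Matrix Gla protein (Mgp), made by smooth muscle cells and activated by vitamin K dependent carboxylation, holds mineral back in the wall, in part by binding bone morphogenetic proteins. Pyrophosphate also blocks crystal growth, and tissue-nonspecific alkaline phosphatase (Alpl) destroys it. Bone morphogenetic proteins such as Bmp2 and Bmp4 act through receptor kinases and Smad proteins on transcription factors including Msx2, while Sox9 directs the cartilage programme and Sost encodes sclerostin, which blocks Wnt signalling at its coreceptors.

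The array labelled wild type 1 stood apart from the others. Its Pearson r with the others across probe sets was 0.887 to 0.897, against 0.970 to 0.996 among the other 5. Tnfsf10, the deleted gene, had log2 signals of 5.02, 4.48 and 4.09 on knockout 1, 2 and 3, against 8.42, 4.90 and 4.85 on wild type 1, 2 and 3, so the arrays labelled wild type 2 and 3 lay within the range of the knockout arrays. Whether the probe set lies in the deleted part is not known. It was among the lowest 40% of probe sets by mean signal, and only wild type 1 exceeded the filter level of 5.9. The smooth muscle actin gene Acta2 ranged from 12.27 to 12.63. The median of 8 vascular smooth muscle markers was 10.37 to 11.10 on the other 5 arrays and 9.34 on wild type 1. Of these markers only Des, the desmin gene, was over 2-fold below every other array there, at 7.86. Cnn1 was also lowest there (9.57), while Smtn (9.12) and Myocd (7.24) were highest there. Acta2, Tagln, Myh11 and Lmod1 lay within the range of the other arrays. Against every other array, wild type 1 was over 2-fold higher for 5 of 6 markers of brown fat and 7 of 7 of white fat. It was over 2-fold lower for 8 of 8 markers of skeletal muscle and 7 of 7 of stratified squamous epithelium. The skeletal muscle list had a median of 11.11 to 11.69 on the other 5 arrays and 5.79 on wild type 1. The squamous epithelium list gave 9.96 to 10.08 and 5.09. High signals of these 2 lists, neither of them vascular, were thus on the other 5 arrays, of both genotypes. The part of these tissues in the samples was not tested. On knockout 2, 7 of 7 stomach epithelium markers were over 2-fold above every other array, and the median of the lung epithelium list was 8.13 on knockout 1 and 4.91 to 5.45 elsewhere. Comparisons are therefore given with and without wild type 1. Arrays are named by their labels throughout.

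No member differed between the genotypes at the adjusted threshold of 0.05, with or without wild type 1. In limma, 0 of 13073 probe sets (0%) passed on 6 arrays and 83 (0.635%) had an unadjusted p under 0.05. Without wild type 1, on 5 arrays, the count that passed was 0 (0%), and 186 (1.42%) had an unadjusted p under 0.05. Without the filter on low signals these last shares were 1.25% and 1.68%, and 0% passed. None of the 7 members had an unadjusted p under 0.05 in either comparison. The groups overlapped for 7 of 7 members on 6 arrays and on 5, while over all genes 6.31% did not overlap on 6 arrays and 13.8% on 5.

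**Figure D1:**
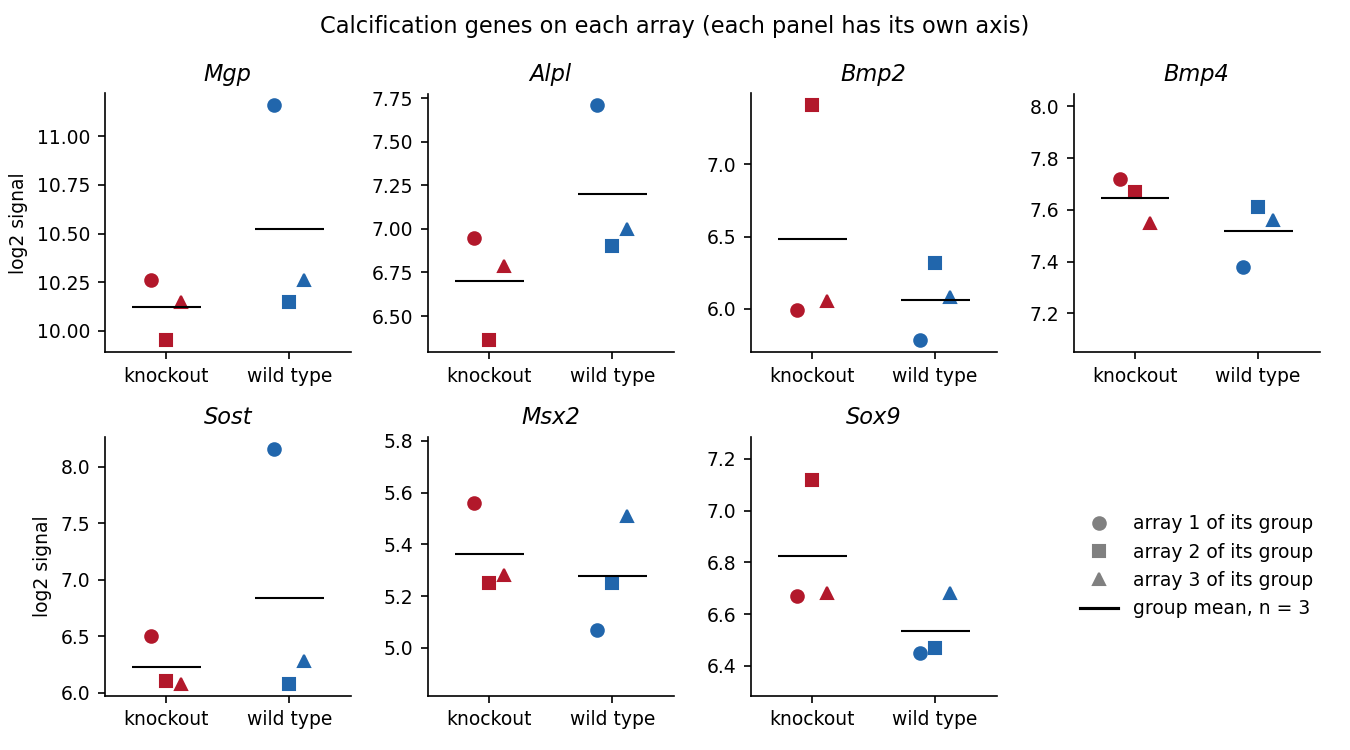
Log2 signal of the 7 measured calcification genes on each array, with knockout on the left and wild type on the right of each panel. Symbols give the array number within its group and bars the mean of 3 arrays. Wild type 1 is the highest point for Mgp, Alpl and Sost, and knockout 2 is the highest for Bmp2 and Sox9.

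The mineralisation inhibitor Mgp was level on 5 arrays and high on wild type 1. Its log2 signal was 10.26, 9.95 and 10.15 on knockout 1, 2 and 3, against 11.16, 10.15 and 10.26 on wild type 1, 2 and 3. The knockout arrays and wild type 2 and 3 thus shared a range of 9.95 to 10.26, and wild type 1 was 0.90 above the highest of them. The mean was 10.12 ± 0.16 in the knockout group and 10.53 ± 0.55 in the wild-type group (SD, n = 3 each), a difference of -0.41 (SE 0.29, 1.33-fold, 95% interval -1.13 to 0.32, limma adjusted p = 0.911). Without wild type 1 the difference was -0.09 (SE 0.13, 95% interval -0.39 to 0.21, limma adjusted p = 0.997).

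Sost had the widest range of the members over 6 arrays, 2.08, and a range of 0.42 over the 5 without wild type 1, where that of Bmp2 was 1.43. It gave 6.50, 6.11 and 6.08 on knockout 1, 2 and 3, against 8.16, 6.08 and 6.28 on wild type 1, 2 and 3. Wild type 1 was over 2-fold above every other array, by 1.66, which was so for 1 of the 7 members and for 4.73% of all genes. It was over 2-fold below every other array for 0 of the 7 members and for 4.74% of all genes. The mean was 6.23 ± 0.24 in the knockout group and 6.84 ± 1.15 in the wild-type group (SD, n = 3 each). The difference of -0.61 (SE 0.57, 95% interval -2.02 to 0.80, limma adjusted p = 0.911) turned to 0.05 without wild type 1 (SE 0.17, 95% interval -0.36 to 0.46, limma adjusted p = 0.997).

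Alpl, the enzyme that removes pyrophosphate, was also highest on wild type 1. Its log2 signal was 6.95, 6.36 and 6.79 on knockout 1, 2 and 3, against 7.71, 6.90 and 7.00 on wild type 1, 2 and 3. Knockout 2 and 3 lay below every wild-type array, and knockout 1 lay between wild type 2 and 3. The mean was 6.70 ± 0.30 in the knockout group and 7.20 ± 0.44 in the wild-type group (SD, n = 3 each). The difference was -0.50 (SE 0.27, 1.41-fold, 95% interval -1.17 to 0.17, limma adjusted p = 0.911). It was -0.25 without wild type 1 (SE 0.19, 95% interval -0.69 to 0.20, limma adjusted p = 0.997), and -0.33 without knockout 2 when wild type 1 was kept. With both of these arrays left out, which was chosen after the data were seen, it was -0.08 (SE 0.13).

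Mgp, Alpl and Sost shared their highest array with the medians of the fat and endothelial marker lists. The medians of the macrophage, cartilage and bone lists were highest there too, by smaller margins. The brown fat list had a median log2 signal of 6.57, 6.33 and 6.60 on knockout 1, 2 and 3, against 10.65, 6.45 and 6.37 on wild type 1, 2 and 3. The white fat list gave 8.91, 8.38 and 7.03 on the knockout arrays, against 11.03, 6.54 and 6.96 on the wild-type arrays. The endothelial list gave 8.16, 7.40 and 7.60 on the knockout arrays, against 8.93, 7.46 and 7.51 on the wild-type arrays, and 4 of its 8 genes exceeded every other array over 2-fold on wild type 1. The macrophage list had a median of 7.46 to 8.01 on the other 5 arrays and 8.19 on wild type 1, the cartilage list 5.01 to 5.34 and 5.77, and the bone list 4.08 to 4.52 and 4.53. In these lists 0 of 9, 0 of 8 and 0 of 4 genes exceeded every other array over 2-fold there. Their genes did not all follow the median. Of the bone list, Phex was highest on wild type 1 (4.75) and Ibsp lowest (3.44), and all its genes were among the lowest 40% of probe sets. Of the cartilage list, Acan, Comp and Chad were highest there, Hapln1 was lowest (4.40), and the rest lay between. The macrophage genes Csf1r and Itgam were not highest there. The part of any of these tissues in the members' values was not tested, and in bulk RNA fewer cells of a type cannot be told apart from less RNA per cell.

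The promoters of Sost and Alpl are shown because both members were highest on wild type 1, and that of Bmp4 because it varied least among the other 5 arrays. Mgp was also highest on wild type 1 but had no promoter window. Windows run from 250 bases before the start of the gene to 50 from it on, from RefSeq on the assembly GRCm38.p6, and 4 of the 7 measured members had one. Capitals mark the GC box GGGCGG or its reverse complement CCGCCC. The Runx core TGTGGT, or ACCACA on the other strand, was searched too.
Sost, chr11:101966966-101967265, minus strand: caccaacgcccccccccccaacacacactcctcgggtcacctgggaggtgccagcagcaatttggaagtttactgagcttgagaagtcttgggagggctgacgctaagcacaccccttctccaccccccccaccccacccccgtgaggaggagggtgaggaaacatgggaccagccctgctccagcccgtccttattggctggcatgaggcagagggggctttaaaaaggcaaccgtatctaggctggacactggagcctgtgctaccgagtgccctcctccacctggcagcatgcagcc
Alpl, first window, chr4:137766426-137766725, minus strand: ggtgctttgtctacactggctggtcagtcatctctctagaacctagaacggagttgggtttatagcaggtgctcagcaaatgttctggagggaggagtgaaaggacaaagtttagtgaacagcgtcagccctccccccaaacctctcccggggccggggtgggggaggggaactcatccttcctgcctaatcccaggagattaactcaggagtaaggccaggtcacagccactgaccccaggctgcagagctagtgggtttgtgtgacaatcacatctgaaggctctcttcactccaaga
Alpl, second window, chr4:137796335-137796634, minus strand: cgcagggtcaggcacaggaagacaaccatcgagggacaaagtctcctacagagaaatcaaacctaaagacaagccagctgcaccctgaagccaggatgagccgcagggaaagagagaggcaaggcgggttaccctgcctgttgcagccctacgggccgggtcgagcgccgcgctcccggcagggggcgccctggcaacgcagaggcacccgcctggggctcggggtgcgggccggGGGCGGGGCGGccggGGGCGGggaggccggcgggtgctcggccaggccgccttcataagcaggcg
Bmp4, chr14:46390620-46390919, minus strand: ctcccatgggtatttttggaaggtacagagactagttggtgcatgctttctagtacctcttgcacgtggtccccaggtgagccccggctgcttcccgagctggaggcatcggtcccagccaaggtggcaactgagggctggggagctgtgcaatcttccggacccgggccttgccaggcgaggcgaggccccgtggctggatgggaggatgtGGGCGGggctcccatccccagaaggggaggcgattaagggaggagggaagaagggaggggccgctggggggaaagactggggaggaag
The GC box was found 3 times in the second Alpl window, where 2 matches share a base, and 1 time in the Bmp4 window. It was found in neither the Sost window nor the first Alpl window, and 35.7% of 32851 windows hold it. The Runx core was in 0 of these 4 windows, and 16.8% of all windows hold it.

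Bmp2, a ligand that drives osteogenic change in vascular cells, was highest on knockout 2. Its log2 signal was 5.99, 7.41 and 6.05 on knockout 1, 2 and 3, against 5.78, 6.32 and 6.08 on wild type 1, 2 and 3. Knockout 2 was 1.10 above the highest other array, and the other knockout arrays lay within the wild-type range. A gap over 2-fold above every other array on knockout 2 was seen for 1.26% of all genes. The mean was 6.48 ± 0.81 in the knockout group and 6.06 ± 0.27 in the wild-type group (SD, n = 3 each), a difference of 0.42 (SE 0.42, 95% interval -0.61 to 1.46, limma adjusted p = 0.911). It was 0.28 without wild type 1 (SE 0.43, 95% interval -0.74 to 1.30), turned to -0.04 without knockout 2, and was -0.18 (SE 0.17) without both.

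Bmp4, the other member of the ligand family, showed little spread. It gave 7.72, 7.67 and 7.55 on knockout 1, 2 and 3, against 7.38, 7.61 and 7.56 on wild type 1, 2 and 3. Knockout 1 and 2 lay above all wild-type arrays, while knockout 3 lay below wild type 2 and 3. The mean was 7.65 ± 0.09 in the knockout group and 7.51 ± 0.12 in the wild-type group (SD, n = 3 each). The difference was 0.13 (SE 0.11, 95% interval -0.15 to 0.41, limma adjusted p = 0.911), and 0.06 without wild type 1 (SE 0.11, 95% interval -0.20 to 0.33, limma adjusted p = 0.997).

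Of the transcription factors, Sox9 of the cartilage programme was, like Bmp2, highest on knockout 2. Its log2 signal was 6.67, 7.12 and 6.68 on knockout 1, 2 and 3, against 6.45, 6.47 and 6.68 on wild type 1, 2 and 3. Knockout 2 stood 0.43 above the next array, and the other knockout arrays were level with wild type 3. The mean was 6.82 ± 0.25 in the knockout group and 6.53 ± 0.13 in the wild-type group (SD, n = 3 each). The difference was 0.29 (SE 0.16, 95% interval -0.11 to 0.69, limma adjusted p = 0.911), 0.25 without wild type 1 (SE 0.17, 95% interval -0.17 to 0.66), 0.14 without knockout 2 and 0.10 without both.

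On knockout 2, 7 of 7 stomach epithelium and 2 of 4 exocrine pancreas markers were over 2-fold higher than on any other array. The stomach epithelium list had a median of 5.51, 12.42 and 5.19 on knockout 1, 2 and 3, against 5.19, 5.04 and 6.79 on wild type 1, 2 and 3. The exocrine pancreas list gave 5.32, 9.06 and 5.09 on the knockout arrays, against 5.06, 4.93 and 6.12 on the wild-type arrays. Clps and Pla2g1b gave 13.10 and 13.29 on knockout 2, while Cpa1 and Cel gave 4.86 and 5.02 there and at most 5.13 elsewhere. The part of these tissues in the Bmp2 and Sox9 values was not tested. Over all genes, knockout 2 was the highest array for 11.5%, and of the members for 2 of 7.

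Msx2, a homeobox factor induced by bone morphogenetic proteins, was the 1 measured member in the lowest 40% of probe sets by mean signal, and it was tested without that filter. It gave 5.56, 5.25 and 5.28 on knockout 1, 2 and 3, against 5.07, 5.25 and 5.51 on wild type 1, 2 and 3. The highest array was a knockout and the lowest a wild type, with the remaining values interleaved. The mean was 5.36 ± 0.17 in the knockout group and 5.28 ± 0.22 in the wild-type group (SD, n = 3 each). The difference was 0.08 (SE 0.16, 95% interval -0.30 to 0.47, limma adjusted p = 0.947) and turned to -0.02 without wild type 1 (SE 0.16, 95% interval -0.40 to 0.36, limma adjusted p = 1).

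**Figure D2:**
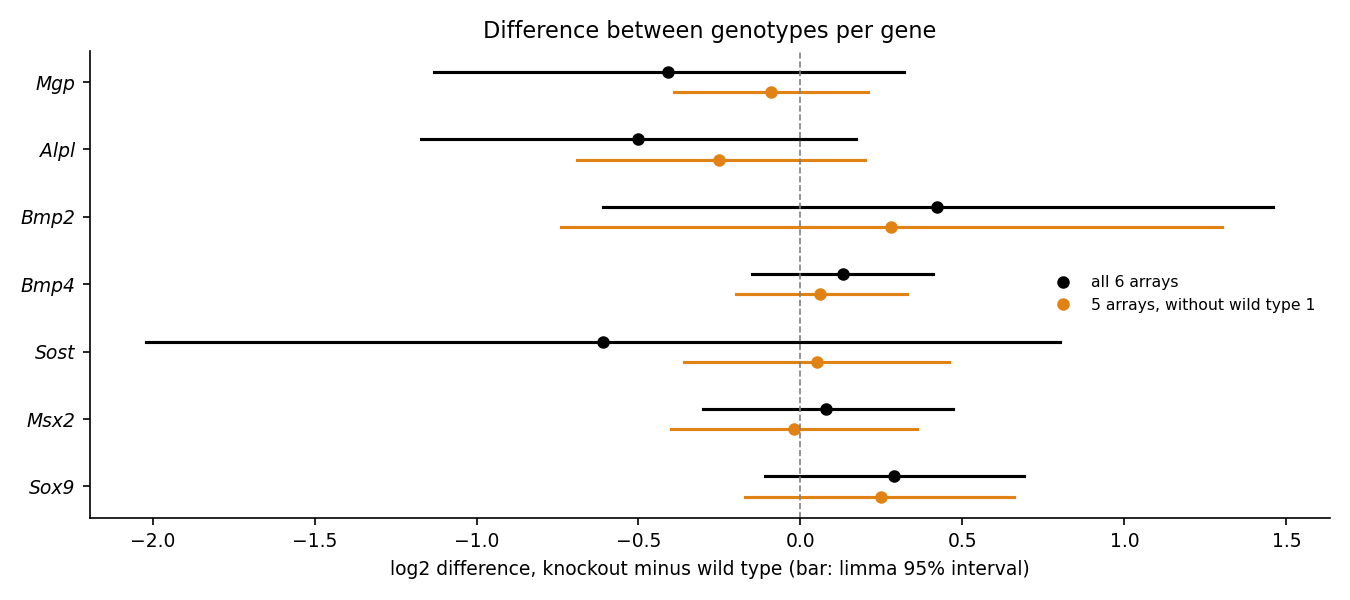
Log2 difference of each gene, knockout minus wild type, with its limma 95% interval, on all 6 arrays (black) and on the 5 arrays without wild type 1 (orange). All intervals include 0, and those of Mgp and Sost are narrower without wild type 1.

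Wild type 1 was the highest or the lowest array for 7 of 7 members. It was highest for Mgp, Alpl and Sost and lowest for Bmp2, Bmp4, Msx2 and Sox9. Over all genes it was highest or lowest for 58% (33.4% highest, 24.6% lowest). Among the other 5 arrays the SD ran from 0.08 for Bmp4 and 0.13 for Mgp to 0.60 for Bmp2. The median difference over the 7 members was 0.0848 on 6 arrays and 0.0501 on 5, against -0.000788 and 0.0109 over all genes, with 4 of 7 members above 0 in each comparison. Bmp2, Bmp4 and Sox9 were above 0 in both, Msx2 on 6 arrays and Sost on 5.

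**Figure D3:**
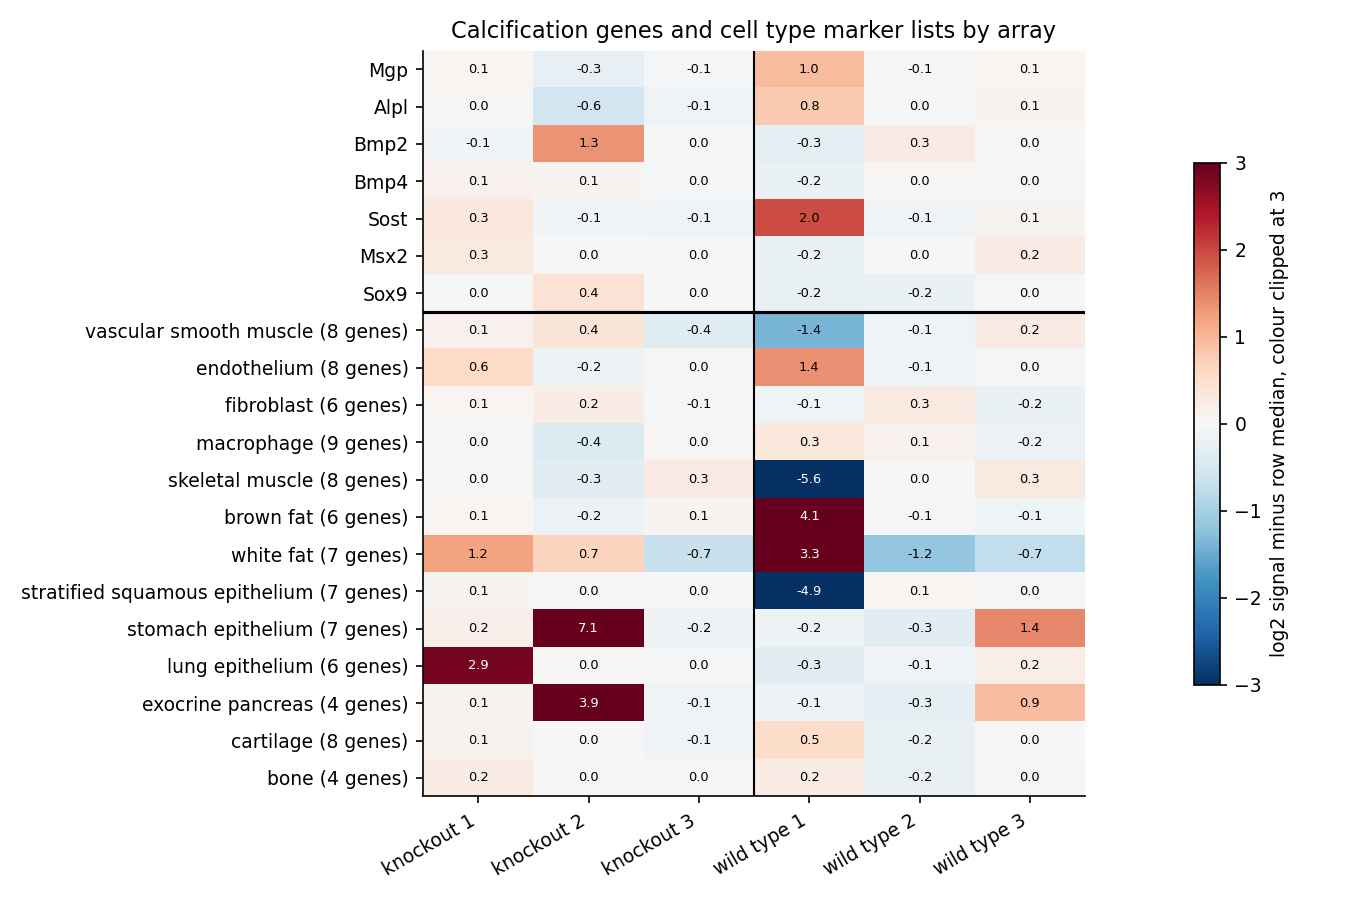
Log2 signal minus the median of its row over 6 arrays, for the 7 measured members (above the line) and for the median of each cell type marker list (below it), with knockout arrays on the left. Wild type 1 carries the high values of Mgp, Alpl, Sost and the fat lists and the low values of the skeletal muscle and squamous epithelium lists. Knockout 2 carries the high values of Bmp2 and the stomach and pancreas lists, the pancreas list through 2 of its 4 genes.

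The wider calcification pathway was read from 11 lists with 104 genes, of which 101 were on the array. None of the 101 passed the limma threshold on 6 arrays or on 5, and 1 (0.99%) had an unadjusted p under 0.05 in each, below the 1.28% of all genes on 6 arrays and the 1.71% on 5. On 6 arrays that gene was Gdf2, a ligand of endothelial receptors also called Bmp9, with a difference of 0.37 (SE 0.13, limma adjusted p = 0.946), and of 0.33 (SE 0.16) without wild type 1. On 5 arrays that gene was Bmp3, an inhibitory family member, with -0.44 (SE 0.13, limma adjusted p = 0.997). Bmp3 was at -0.04 (SE 0.35) on 6 arrays. Both are named because they are the whole of that count. Gdf2, with signals of 4.52 to 5.11, was among the lowest 40% of probe sets and was tested without the filter. Bmp3 passed the filter. The groups did not overlap for 6 of 101 genes (5.94%) on 6 arrays, near the 6.31% over all genes, and for 15 of 101 (14.9%) on 5 arrays, near the 13.8%. On 6 arrays, 60 of 101 differences (59.4%) were above 0, against 49.8% of all genes, and on 5 arrays 70 of 101 (69.3%), against 53.1%. The median difference was 0.0450 on 6 arrays and 0.0496 on 5. With every array centred on its median it was 0.0101 on 6 arrays. The array medians ran from 6.36 on wild type 1 to 6.48 on knockout 1.

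**Figure D4:**
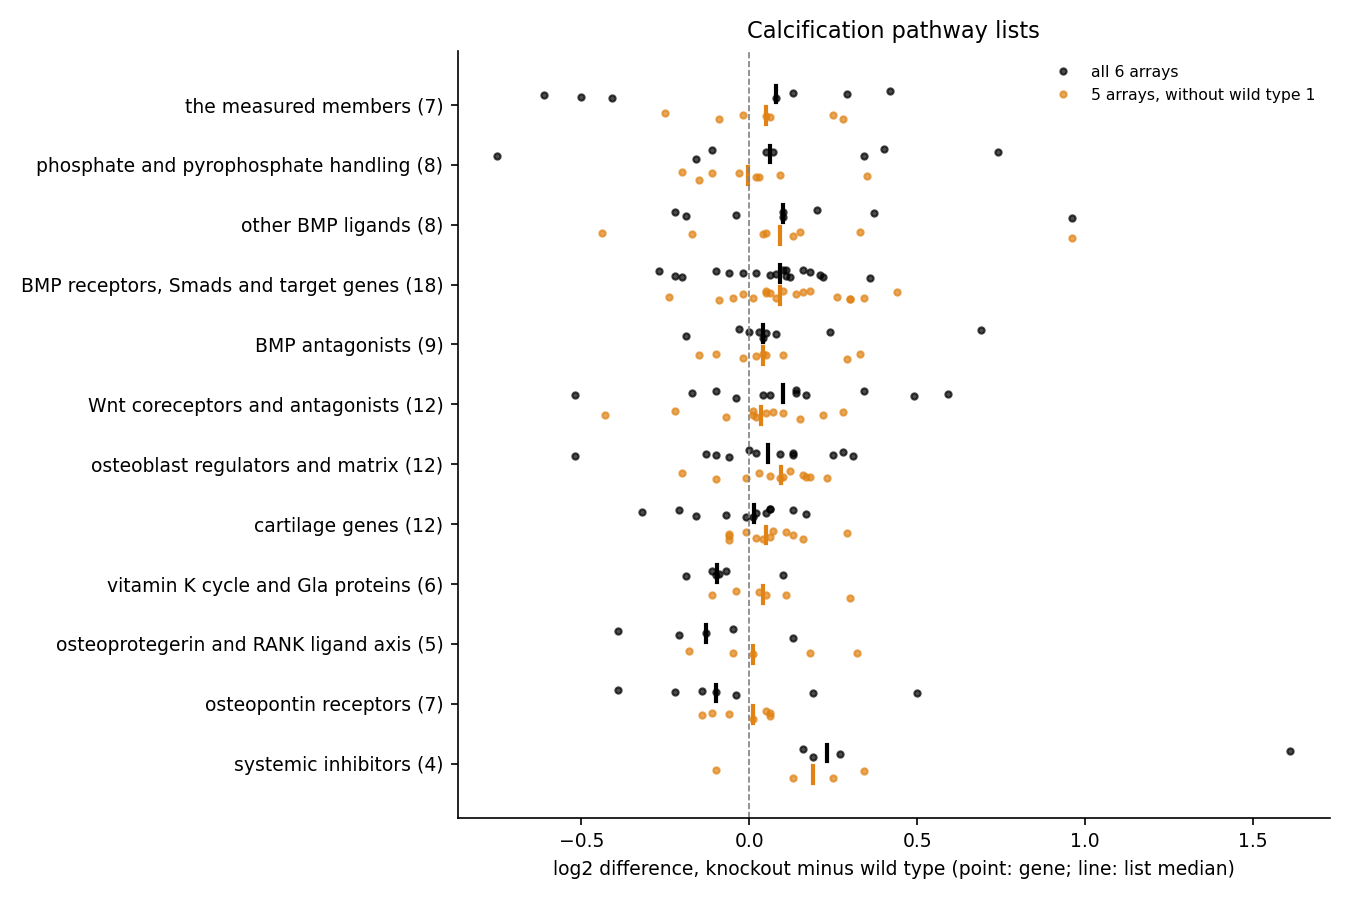
Log2 difference of every gene of the pathway lists, knockout minus wild type, on 6 arrays (black) and on 5 arrays without wild type 1 (orange), with short lines at the list medians and the number of genes in brackets. List medians lie between -0.126 and 0.230 on 6 arrays, and the gene farthest from 0 is Fetub on 6 arrays and Bmp5 on 5.

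Genes of phosphate and pyrophosphate handling were above 0 for 5 of 8 on 6 arrays and for 4 of 8 on 5. Nt5e, the ectonucleotidase whose loss calcifies human arteries, gave 7.32, 8.53 and 7.44 on knockout 1, 2 and 3, against 6.26, 7.57 and 7.25 on wild type 1, 2 and 3. It was thus highest on knockout 2 and lowest on wild type 1, and the difference of 0.74 (SE 0.47) was 0.35 (SE 0.36) without wild type 1. Phospho1, a phosphatase that frees phosphate in matrix vesicles, gave 7.00, 7.18 and 7.36 on the knockout arrays, against 9.21, 7.15 and 7.43 on the wild-type arrays. Its difference was -0.75 (SE 0.55), and -0.11 (SE 0.15) without wild type 1. Entpd1, an ectonucleotidase that breaks down ATP, was lower on all 3 knockout arrays (9.16, 8.85 and 9.18) than on all 3 wild-type arrays (9.23, 9.23 and 9.20), with a difference of -0.16 (SE 0.13), and of -0.15 (SE 0.14) without wild type 1. For these 3 genes the limma adjusted p was 0.911 on 6 arrays and 0.997 on 5.

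Other ligands of the family were above 0 for 5 of 8 on 6 arrays and for 6 of 8 on 5. Bmp5, a ligand of skeletal and lung development, gave 6.38, 7.34 and 5.62 on knockout 1, 2 and 3, against 5.47, 5.31 and 5.67 on wild type 1, 2 and 3. Its high values were on knockout 1 and 2, while knockout 3 lay within the wild-type range. The lung epithelium median was highest on knockout 1 (8.13). The stomach epithelium median was highest on knockout 2 (12.42) and next highest on wild type 3 (6.79), where Bmp5 was 5.67. The part of these tissues in the Bmp5 values was not tested. The difference was 0.96 (SE 0.43, limma adjusted p = 0.911) on 6 arrays and 0.96 (SE 0.46, limma adjusted p = 0.997) on 5. Bmp6 and Bmp7 differed by -0.22 and 0.20 on 6 arrays, and by 0.15 and -0.17 without wild type 1.

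Receptors, Smads and target genes of the pathway were above 0 for 12 of 18 on 6 arrays and for 14 of 18 on 5, with medians of 0.0926 and 0.0920. The receptor genes Acvr2b, Bmpr1b and Bmpr2 had the lowest p of this list, and differed by 0.18 (SE 0.12), 0.36 (SE 0.25) and 0.16 (SE 0.12). Without wild type 1 they were at 0.14, 0.08 and 0.16. Among antagonists, 7 of 9 were above 0 on 6 arrays and 6 of 9 on 5. Grem1, the secreted antagonist gremlin, differed by 0.69 (SE 0.60), Chrdl1 by 0.24 (SE 0.30), and Bmper, which modulates the ligands at endothelial cells, by -0.19 (SE 0.13). Grem1 gave 7.18 or more on the other 5 arrays and 5.61 on wild type 1, and differed by 0.04 (SE 0.27) without that array, where Chrdl1 was at 0.33 (SE 0.31) and Bmper at -0.15 (SE 0.14).

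Wnt coreceptors and antagonists, the axis on which sclerostin acts, were above 0 for 8 of 12 on 6 arrays and for 9 of 12 on 5. Sostdc1, a relative of Sost that binds both Wnt coreceptors and bone morphogenetic proteins, was higher on all 3 knockout arrays (7.13, 6.90 and 6.98) than on all 3 wild-type arrays (5.96, 6.68 and 6.89). The gap between knockout 2 and wild type 3 was small, and the difference of 0.49 (SE 0.26, limma adjusted p = 0.911) was 0.22 (SE 0.13, limma adjusted p = 0.997) without wild type 1. The secreted frizzled-related genes Sfrp1 and Sfrp2 differed by 0.34 (SE 0.24) and -0.52 (SE 0.28), and by 0.10 and -0.22 without wild type 1.

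Osteoblast regulators and matrix genes were above 0 for 8 of 12 on 6 arrays and for 9 of 12 on 5, with medians of 0.0531 and 0.0952. Twist1, a factor that restrains osteoblast maturation, gave at most 6.60 on the other 5 arrays and 8.09 on wild type 1. The difference of Twist1 was -0.52 (SE 0.51), and 0.06 (SE 0.18) without wild type 1. Ibsp, the bone sialoprotein gene that defines mineralising osteoblasts, gave 3.91, 3.96 and 4.08 on the knockout arrays, against 3.44, 3.86 and 3.90 on the wild-type arrays, a difference of 0.25 (SE 0.14) on 6 arrays and 0.10 (SE 0.11) on 5. It was among the lowest 40% of probe sets. Cartilage genes were above 0 for 7 of 12 on 6 arrays and for 8 of 12 on 5, with medians of 0.0108 and 0.0466. Col2a1, the main collagen of cartilage, lay between 6.56 and 6.85 on all arrays with a difference of 0.02 on 6 arrays (SE 0.12) and on 5 (SE 0.13). Acan, the cartilage proteoglycan aggrecan, gave -0.32 (SE 0.26), and -0.06 (SE 0.17) without wild type 1. Like Ibsp, Acan was among the lowest 40% of probe sets. Sox6, a partner of Sox9 in cartilage, was lower on all 3 knockout arrays (7.89, 7.84 and 7.87) than on all 3 wild-type arrays (8.22, 7.89 and 7.96), with knockout 1 and wild type 2 equal after rounding, and the difference was -0.16 (SE 0.12, limma adjusted p = 0.911). Without wild type 1 the Sox6 difference was -0.06 (SE 0.10, limma adjusted p = 0.997).

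Genes of the vitamin K cycle, of the osteoprotegerin and RANK ligand axis and of osteopontin receptors were examined next. The vitamin K cycle and Gla proteins were above 0 for 1 of 6 on 6 arrays and for 4 of 6 on 5, with Vkorc1, the epoxide reductase that recycles vitamin K, at -0.19 (SE 0.21) and 0.03 (SE 0.12). Tnfrsf11b, which encodes osteoprotegerin, gave 6.42, 6.90 and 6.56 on knockout 1, 2 and 3, against 6.91, 6.47 and 6.88 on wild type 1, 2 and 3. The groups were interleaved, with a difference of -0.13 (SE 0.19, limma adjusted p = 0.911), and of -0.05 (SE 0.19, limma adjusted p = 0.997) without wild type 1. Tnfsf11, the RANK ligand gene, gave 7.15, 6.95 and 6.57 on the knockout arrays, against 7.05, 6.71 and 7.06 on the wild-type arrays, a difference of -0.05 (SE 0.19), and of 0.01 (SE 0.20) without wild type 1. Osteopontin receptors were above 0 for 2 of 7 on 6 arrays and for 4 of 7 on 5, with the integrin genes Itga4 and Itgav at -0.22 (SE 0.16) and 0.19 (SE 0.18). Itga4 and Itgav were at -0.11 and 0.01 without wild type 1.

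Of the inhibitors that circulate in blood, Fetub had the largest difference of all pathway genes on 6 arrays. Fetub, the fetuin B gene, gave 10.12, 10.11 and 10.62 on knockout 1, 2 and 3, against 5.25, 10.50 and 10.27 on wild type 1, 2 and 3. The low value on wild type 1 set the difference of 1.61 (SE 1.43, limma adjusted p = 0.911), which turned to -0.10 (SE 0.18, limma adjusted p = 0.997) without that array. The stratified squamous epithelium list had medians of 10.08, 9.99 and 10.02 on the knockout arrays, against 5.09, 10.06 and 9.96 on the wild-type arrays, and its part in the Fetub value was not tested. Fgf23, a hormone that lowers blood phosphate, differed by 0.19 (SE 0.19), and by 0.25 (SE 0.20) without wild type 1.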

How the data were processed

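RNA of 3 Trail knockout and 3 wild-type samples was measured on one-colour Affymetrix arrays from biotinylated cRNA made of 6 ug, per the labels' protocols. The deposited table holds log2 values (1.55 to 13.96, base read from this range) for 35399 probe sets. The submitters' processing notes name MAS5. How signals were corrected, summarised and scaled is not given in the sources used, and values were used as deposited. No detection calls were used.

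Names came from the platform annotation, which lists 23410 probe sets, 21789 with 1 symbol and 1621 with several. The genotypes were compared with limma 3.58.1 under R 4.3.3 (2 groups, trended moderation), and p-values were adjusted by Benjamini-Hochberg with a threshold of 0.05. The 13073 probe sets above the lowest 40% by mean over 6 arrays were tested, and genes below took their values from the fit without a filter. The fitting code was run on simulated data with known differences. Its noise was independent between arrays, with a spread taken without wild type 1. The simulation thus held no outlying array, and it cannot show how the fit behaves with wild type 1 included. Without a genome build for the array, gene coordinates were not used, except for promoter windows of RefSeq (GRCm38.p6).

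The members, the pathway lists and the markers were chosen with earlier results of these data known. Lists are described by counts and medians and were not tested. Outside the last section, pathway genes named are fixed defining genes, those said to complete a count, and genes of low p. The latter were drawn from the 3 of each list with the lowest p among those passing the filter. Not all of these are named. In exact permutation tests of single genes, 3 against 3 arrays cannot go below p = 0.1.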

Additional observations from a re-analysis of the deposited data

How the results depend on the processing

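No member and no probe set passed the limma threshold under quantile normalization, median centring, a pseudocount of 64, no filter, a 60% filter, moderation without a trend, array weights, the replicate block, or on leaving out any array. Under the 60% filter only Mgp and Bmp4 were tested among the members. Alpl, Bmp2, Sost, Sox9 and Msx2 fell below it and took their values from the fit without a filter. The lowest limma adjusted p of a member was 0.749. Exact permutation tests (two-sided, n = 3 per group) gave p from 0.2 to 0.7. With array weights Sost turned to 0.05 and Msx2 to -0.08, and Mgp was at -0.09, Alpl at -0.20, Bmp2 at 0.17 and Sox9 at 0.11. With a pseudocount of 64, Alpl was at -0.33, Bmp2 at 0.26, Sox9 at 0.18 and Msx2 at 0.03. With wild type 1 and knockout 2 left out together, chosen after the data were seen, Sost was 0.11 and Bmp2 -0.18. On leaving out each array in turn, differences ran from -0.99 to 0.05 for Sost, from -0.04 to 0.67 for Bmp2, from -0.02 to 0.20 for Msx2, from -0.59 to -0.09 for Mgp, from -0.65 to -0.25 for Alpl, from 0.06 to 0.18 for Bmp4 and from 0.14 to 0.37 for Sox9. The member median ran from -0.0425 (without knockout 2; -0.0147 without knockout 1) to 0.151, and the pathway median from -0.0255 (without knockout 1) to 0.103. Wild type 1 counts for more of its group when wild type 2 or 3 is left out.

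The replicate numbers are shared by the groups only as numbers. Same-numbered arrays were not treated as pairs. Their deviations from the group means correlated at 0.0922, -0.245 and 0.212. Such deviations sum to 0 within a group and carry the outlying arrays, so they cannot show whether the numbers mark pairs. With the replicate number as a block, 0 probe sets passed and Alpl was at -0.50 (limma unadjusted p = 0.0403, adjusted p = 0.962), the 1 member with an unadjusted p under 0.05 in that fit. Precision is limited by having 3 arrays a group, and signal over background was not used.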

Other observations

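Further genes of the calcification pathway stood out on wild type 1 alone, and are given as values, chosen after they were seen. On that array 4 of 101 pathway genes (3.96%) were over 2-fold above every other array and 5 (4.95%) over 2-fold below, against 4.73% and 4.74% of all genes. Beside Phospho1 and Twist1, the genes above were Id2, a target of bone morphogenetic protein signalling, and Acp5, the tartrate-resistant acid phosphatase of osteoclasts and macrophages. Id2 gave 8.55, 9.37 and 8.38 on knockout 1, 2 and 3, against 10.47, 8.30 and 8.36 on wild type 1, 2 and 3. Acp5 gave 8.36, 8.32 and 8.00 on the knockout arrays, against 10.03, 8.04 and 7.76 on the wild-type arrays. Beside Grem1 and Fetub, the genes below were Cd44, a receptor of osteopontin and hyaluronan, Lrp4, the coreceptor that presents sclerostin, and Smpd3, a sphingomyelinase needed for bone mineralisation. Lrp4 gave 7.71, 7.57 and 7.64 on the knockout arrays, against 5.73, 7.59 and 7.82 on the wild-type arrays. Cd44 gave at least 9.12 on the other 5 arrays and 7.63 on wild type 1, and Smpd3 at least 7.81 on the other 5 and 6.69 on wild type 1. Sost was thus highest and its coreceptor gene Lrp4 lowest on wild type 1. That array was the highest or lowest for 58% of all genes, and a relation between Sost and Lrp4 was not tested.

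Of the 4 Id genes, targets of bone morphogenetic protein signalling, Id1, Id2 and Id3 had their highest and second highest values on wild type 1 and knockout 2. Id1 gave 7.38, 8.09 and 7.36 on knockout 1, 2 and 3, against 8.23, 7.72 and 7.48 on wild type 1, 2 and 3. Id3 gave 7.23, 7.74 and 6.85 on the knockout arrays, against 8.19, 6.99 and 6.95 on the wild-type arrays. Bmp2 was highest on knockout 2 and lowest on wild type 1, so these 3 genes were high on both the highest and the lowest Bmp2 array. Id4 went the other way, with 8.98, 8.66 and 8.91 on the knockout arrays, against 8.32, 9.38 and 8.80 on the wild-type arrays, so that it was lowest on wild type 1 and next lowest on knockout 2. The differences between the genotypes were -0.20 (SE 0.29) for Id1, -0.27 (SE 0.65) for Id2 and -0.10 (SE 0.41) for Id3, with limma adjusted p of 0.911, 0.932 and 0.955. Without wild type 1 they were 0.01, 0.44 and 0.30. Id4 differed by 0.02 (SE 0.29, limma adjusted p = 0.987), and by -0.24 (SE 0.20, limma adjusted p = 0.997) without wild type 1.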
